A study of Mus musculus with 2 samples.

Results

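The epidermal kallikreins are secreted serine proteases of the outer epidermis, and the subject here is a set of 10 genes. The set holds 9 kallikrein genes, Klk5, Klk6, Klk7, Klk8, Klk9, Klk10, Klk11, Klk13 and Klk14. It also holds Spink5, which encodes LEKTI, an inhibitor of some of these enzymes. A probe belonged to the set when the RefSeq accession given for it on the array is an accession of one of these genes. Each of the 10 genes had 1 probe, spotted 1 time, out of 20144 genes that had a named probe. Older synonyms were not used for matching, because Klk5, Klk6, Klk8, Klk9, Klk11 and Klk14 are also old names of genes or pseudogenes of the neighbouring Klk1 and Klk1b group.

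RNA of primary mouse keratinocytes labelled P3 was hybridised to 1-colour arrays, 1 array for Rac3-KO cells, which the labels name as the control, and 1 for cells labelled Rac1Rac3-DKO, here written DKO-labelled. By the labels both groups lack Rac3, and loss of Rac1 is what the second label adds. The series title asks how Rac signals in keratinocytes act on the fat cells of the dermis. The labels do not explain P3, which may be an age or a passage. The promoter or Cre line behind the Rac1 deletion and the number of animals behind each sample are not given in the sources used here. With 1 array per genotype there was no replicate check and no test, and every value below compares these arrays.

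In the epidermis, corneocytes are held together at the surface by corneodesmosomes, which are desmosomes that carry the protein corneodesmosin. Kallikreins secreted from the granular layer cut corneodesmosin, desmoglein 1 and desmocollin 1, so that cells can be shed, a process called desquamation. In work on human proteins, KLK5 can activate itself and the proforms of KLK7 and KLK14, and LEKTI holds these enzymes back until the skin surface acidifies. Loss of SPINK5 in people causes Netherton syndrome, in which the barrier is lost through unchecked proteolysis.

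A probe is called detected here when the scanner software flagged its signal as well above background, which held for 56.9% of 55678 probes in the Rac3-KO sample and 52.9% in the DKO-labelled sample. No spot was saturated. Levels are log2 processed signal relative to the array's 75th percentile, which lay at signals of 705 and 354, in the same order. The lowest detected signals were 23.4 and 20.1 in that order. The number of arrays, 1 per genotype, limits precision. The Rac1 probes differed by 0.28 and -0.12 (log2, DKO-labelled minus Rac3-KO) with a signal error of 0.20, so Rac1 was not lower where the label says it was deleted. The Rac3 probe was detected in both samples, at signals of 99.8 and 59.1, although both labels name a Rac3 knockout. The labels do not name the deleted exons, and where the probes sit on the transcripts was not examined, so they may lie outside the deleted parts and then check nothing.

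Most of the kallikreins and Spink5 were lower in the DKO-labelled sample. Of the 10 genes, 7 were detected in both samples, and 6 of these 7 were at least 2-fold lower, namely Klk11, Klk5, Klk8, Spink5, Klk10 and Klk7. Among all 14144 genes measured in both samples the share at least 2-fold lower was 6.62%. None of the 7 was at least 2-fold higher, against 7.71% of all measured genes. The median log2 difference of the 7 was -1.86, and that of all measured genes was -0.01. Klk9 was the exception, with a difference of 0.37. Klk13 and Klk6 were detected in the Rac3-KO sample alone, 2 of the 9 set members detected there, against 5.72% of all genes detected there. Klk6, at a scaled level of -4.49 in the Rac3-KO sample, would also go undetected in the DKO-labelled sample at an unchanged scaled level. Its loss of detection is therefore not read as a lower level, and Klk13 alone adds to the lower genes. Klk14 was not detected in either sample. At a threshold of 1.5-fold 6 of the 7 measured genes were lower and 0 higher, against 16.5% and 18.2% of all measured genes, and at 3-fold 5 were lower and 0 higher, against 2.23% and 2.29%.

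**Figure D1:**
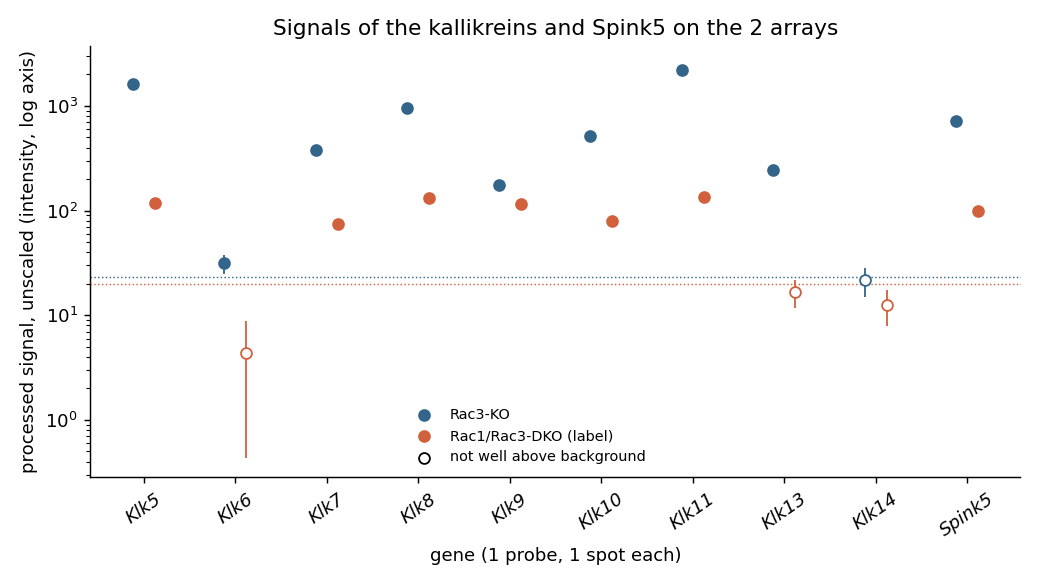
Processed signal before scaling, on a log axis, of the single probe of each of the 9 kallikreins and Spink5 on the Rac3-KO array (blue) and the array labelled Rac1/Rac3-DKO (orange). Bars are the scanner software's signal error, open circles are signals that were not detected (not well above background), and dotted lines mark the lowest detected signal on each array (23.4 and 20.1). Klk11 has the highest Rac3-KO signal at 2210, the Klk9 signals of 177 and 115 lie closest together among the 7 measured genes, and both Klk14 signals are open circles.

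Among the proteases at the head of the cascade, Klk5, a trypsin-like kallikrein that starts the cascade in human epidermis, had a processed signal of 1609 ± 161 in the Rac3-KO sample and 117 ± 12.7 in the DKO-labelled sample, where the error is the software's signal error for 1 spot. Its scaled levels were 1.19 and -1.59, a log2 difference of -2.78 with a signal error of 0.21. This put Klk5 6.89-fold lower in the DKO-labelled sample, with a range of 5.16-fold to 9.19-fold at 1.96 signal errors, the interval of a normal error at 95%, and at place 29 from the lowest of the 14144 measured genes. The range holds the error that the software assigns to 2 spots and no variation between cultures or animals. The median signal error of all measured genes was 0.20 (log2). Differences of repeated spots of 1 probe had a median SD of 0.09, over 273 probes. Klk7, the chymotrypsin-like enzyme first described from the stratum corneum, had signals of 381 ± 38.6 and 75 ± 8.91. Its log2 difference was -1.35 with a signal error of 0.23, or 2.56-fold lower with a range of 1.88-fold to 3.47-fold. Klk7 thus lay on the same side as Klk5 by a smaller step, and 3.36% of all measured genes had a difference at or below it. Klk14, a trypsin-like kallikrein that human KLK5 can activate, had signals of 21.5 ± 6.65 and 12.6 ± 4.67, neither of them detected, so no fold is given.

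Klk11, another trypsin-like member, had the lowest difference of the set. Its signal was 2210 ± 221 in the Rac3-KO sample and 135 ± 14.1 in the DKO-labelled sample. The log2 difference was -3.04 with a signal error of 0.21, or 8.22-fold lower with a range of 6.19-fold to 10.9-fold, at place 21 from the lowest of the measured genes. Klk8, also called neuropsin and known from both brain and epidermis, had signals of 955 ± 95.7 and 132 ± 13.8. It was 3.65-fold lower, with a range of 2.74-fold to 4.85-fold and a log2 difference of -1.87. Klk10 had signals of 515 ± 51.8 and 79.5 ± 9.20 and was 3.26-fold lower, with a range of 2.41-fold to 4.40-fold and a log2 difference of -1.70. Klk8 and Klk10 lay among the lowest 1.32% and 1.89% of measured genes.

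Klk13 had a signal of 242 ± 24.9 in the Rac3-KO sample and 16.6 ± 4.89, not detected, in the DKO-labelled sample. Set against the lowest detected level of the DKO-labelled sample, it was at least 6.06-fold lower there. Klk6, known in the brain as neurosin, was dim in the Rac3-KO sample, at 31.4 ± 6.62, and not detected in the DKO-labelled sample, at 4.36 ± 4.38. After scaling, its Rac3-KO level of -4.49 lay below the lowest level detected in the DKO-labelled sample, so no fold is given for Klk6. Klk6 and Klk14 therefore add no size to the comparison, and Klk13 adds a bound.

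Klk9, a kallikrein whose substrates in skin are less well known, had signals of 177 ± 18.3 and 115 ± 12.2. The unscaled signal was thus lower in the DKO-labelled sample, but by a smaller factor than the 75th percentile. Its log2 difference was 0.37 with a signal error of 0.21, or 1.29-fold higher, and 1.96 signal errors reach from 1.04-fold lower to 1.73-fold higher. A difference of 0 lies inside that range, and scaling to spike-in RNA turned the value to -1.60, so no direction is read for Klk9. Its difference lay at or above that of 72.8% of measured genes.

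Spink5, the inhibitor, went with the proteases. Its signal was 722 ± 72.5 in the Rac3-KO sample and 100 ± 11.1 in the DKO-labelled sample. It was 3.63-fold lower, with a range of 2.71-fold to 4.87-fold, a log2 difference of -1.86 and a signal error of 0.22. The gap between the differences of Klk8 and Spink5 was 0.01 (log2), within the limit of 0.59 set by 1.96 combined signal errors. The gap between Klk5 and Spink5 was 0.93, beyond its limit of 0.59. Klk5 was thus lower by a larger factor than its inhibitor when only the software's signal error is counted. Klk11 lay 1.18 below Spink5, beyond the same limit of 0.59. The gaps from Spink5 to Klk10 and Klk7, at 0.16 and 0.51, were within their limits of 0.61.

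Ordered by difference, the 7 measured genes ran from Klk11 through Klk5, Klk8, Spink5, Klk10 and Klk7 to Klk9. Of the 6 steps between neighbours in this order, 2 went beyond 1.96 combined signal errors, that from Klk5 to Klk8 with a gap of 0.92 and that from Klk7 to Klk9 with a gap of 1.72. Klk11 and Klk5, 0.25 apart, did not differ beyond that error, and neither did any neighbours among Klk8, Spink5, Klk10 and Klk7. Which steps pass depended on the processing. With normexp of the median spot signal and an offset of 50, the gap from Klk11 to Klk5 was 0.65, beyond the same limit of 0.58. That from Klk5 to Klk8 was 0.42, within it, while that from Klk7 to Klk9, at 1.19, stayed beyond its limit. A wider yardstick is the spread between different probes of the same gene, with a root mean square SD of 0.38 over 3578 genes, which sets a limit of 1.05 for a gap between 2 single-probe genes. By that limit the step from Klk7 to Klk9 still stood out, while those from Klk5 to Klk8 and from Klk5 to Spink5 did not. Of 21 pairs, 14 lay beyond the signal-error limit and 12 beyond the wider one.

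**Figure D2:**
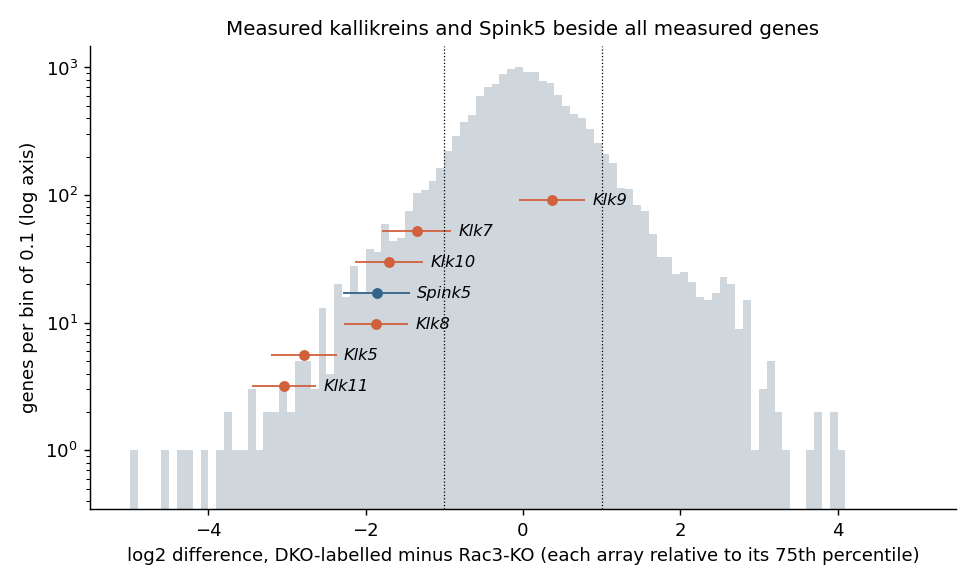
Histogram of the log2 difference, DKO-labelled minus Rac3-KO, of the 14144 measured genes (grey, counts on a log axis), with the measured kallikreins (orange points) and Spink5 (blue point) laid over it. Bars are 1.96 signal errors, the heights of the points carry no value, and dotted lines mark 2-fold. Klk11 at -3.04 and Klk5 at -2.78 sit in the lower tail and Klk9 at 0.37 inside the main body.

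The sizes of the differences depended on the processing of signal and background. The normexp setting also adds an offset of 50 to every signal, which narrows the folds of dim probes. The parts of the offset and of the correction were not told apart. With normexp correction of the median spot signal, Klk7 came to -0.77 and was no longer 2-fold lower, and Spink5 and Klk10 came to -1.22 and -1.08. Klk11, Klk5 and Klk8 came to -2.72, -2.07 and -1.65, and the bound of Klk13 shrank from -2.60 to -1.10. The 6 kallikreins and Spink5 that were measured had DKO-labelled signals between 75 and 135, a few times the lowest detected signal of 20.1. Scaling to spike-in RNAs moved all 7 measured genes down by the same step and put all 7 at least 2-fold lower, in a setting where 91.9% of all genes were. Before scaling, the spike-in probes differed by 0.98 and the 75th percentile by -0.99 (log2, DKO-labelled minus Rac3-KO). The 2 scalings thus start from opposite shifts between the arrays, and what lies behind this was not tested.

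**Figure D3:**
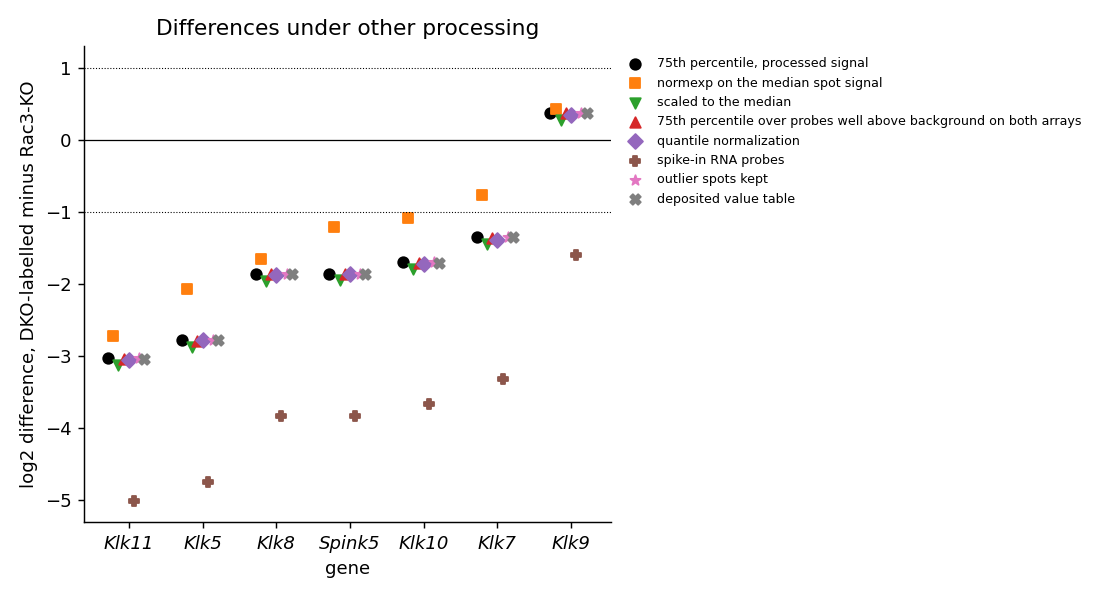
Log2 difference, DKO-labelled minus Rac3-KO, of the 7 measured genes under the processing used in the text (black circles) and 7 alternatives. The other scalings, the kept outlier spots and the deposited value table lie close to the black circles, normexp lies above them for every gene, and spike-in scaling lies about the same distance below them for every gene, with Klk9 at -1.60.

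The 9 kallikrein genes lie in 1 cluster on mouse chromosome 7, with Klk12 among them, and Spink5 lies on chromosome 18. In the GRCm38.p6 gene table, used here for order, 26 protein-coding Klk genes follow each other with no other protein-coding gene between them, from Klk14 at one end through Klk13, Klk12, Klk11, Klk10, Klk9, Klk8, Klk7, Klk6, Klk5, Klk4 and Klk15 to 13 Klk1b genes and Klk1 at the other end. Klk12, which lies between Klk13 and Klk11 and is not in the set, had signals of 18.3 and 21.4 and was detected in the DKO-labelled sample alone. After scaling, this gave a bound of at least 1.82-fold higher there. The signal of 21.4 lay near the lowest detected signal of 20.1, and the bound counts no signal error. No direction is therefore read for Klk12. Klk4, next to Klk5 and best known as an enamel protease, was detected in the Rac3-KO sample alone, at 31.9 against 6.77, too dim for a bound. Klk15 and Klk1 were detected in neither. Of the 13 Klk1b genes, glandular kallikreins known from the mouse salivary gland, 7 were measured, of which 4 passed 2-fold upwards and 0 downwards, with a median of 1.60. Klk1b26 was 6.57-fold higher, Klk1b16 6.41-fold and Klk1b5 4.78-fold. Klk1b genes are near-identical copies, so a probe may read several of them. The flanking genes on the array nearest to Klk14, Ctu1 and Siglece, differed by -0.63 and 0.37. In this row of genes, the values at least 2-fold lower lay between Klk13 and Klk5 and those at least 2-fold higher among the Klk1b genes. Klk9 and Klk12 lay inside the first stretch and were not at least 2-fold lower, with no direction read for either. Ctu1, outside that stretch, was 1.55-fold lower, beyond 1.96 of its signal error of 0.21.

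**Figure D4:**
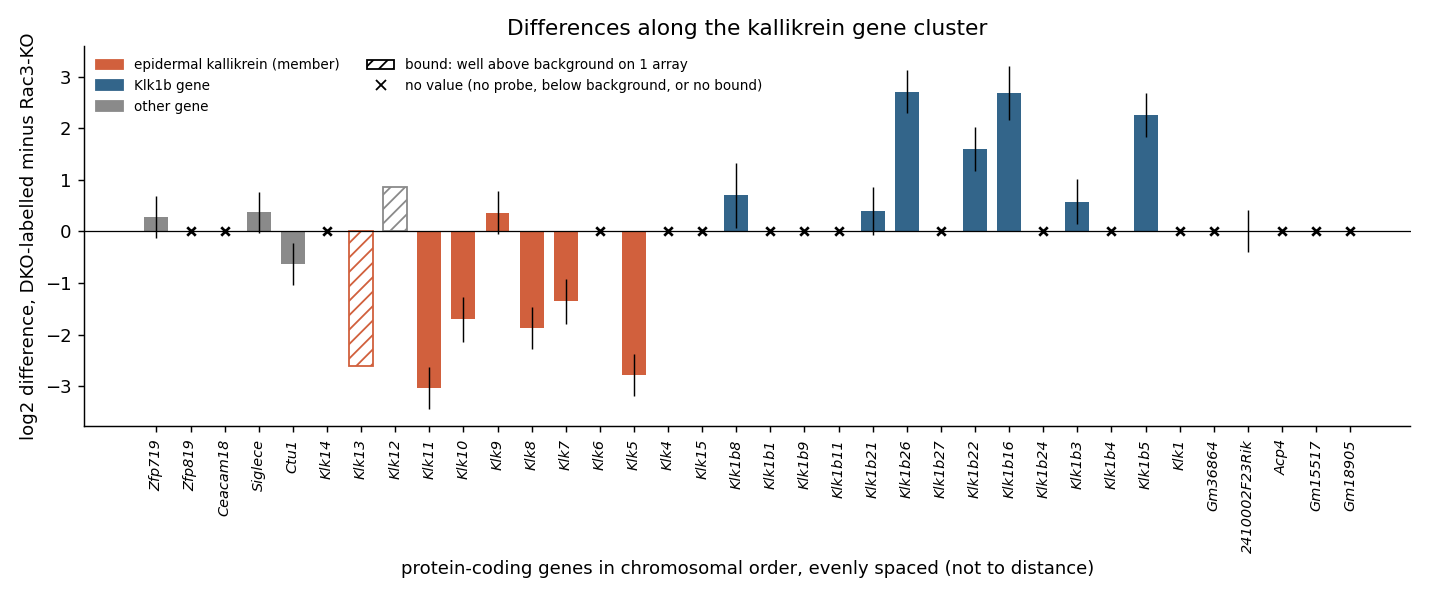
Log2 difference, DKO-labelled minus Rac3-KO, of the protein-coding genes of the kallikrein cluster and 5 genes on each side, in chromosomal order with even spacing. Orange bars are set members, blue bars Klk1b genes and grey bars other genes. Black lines are 1.96 signal errors, hatched bars are bounds for genes detected in 1 sample, and crosses mark genes with no value. Members with a value lie below 0 except Klk9, and all 7 measured Klk1b genes lie above 0.

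Promoter windows are shown for 3 adjacent genes and for the 2 genes with the lowest differences, Klk11 and Klk5. Of the 3, Klk10 and Klk8 were at least 2-fold lower, and no direction is read for Klk9 between them. Each runs from 250 bases before to 50 bases after an annotated start, on the plus strand, from RefSeq on build GRCm38.p6. The windows are chr7:43780804-43781103 for Klk10, chr7:43791641-43791940 for Klk9, chr7:43797327-43797626 for Klk8, chr7:43774367-43774666 for the first of 2 Klk11 windows and chr7:43842019-43842318 for Klk5. Capitals mark matches, on either strand, to the CACC box CCACCC, read by Krüppel-like factors, or to the GC box GGGCGG, read by Sp factors.
Klk10: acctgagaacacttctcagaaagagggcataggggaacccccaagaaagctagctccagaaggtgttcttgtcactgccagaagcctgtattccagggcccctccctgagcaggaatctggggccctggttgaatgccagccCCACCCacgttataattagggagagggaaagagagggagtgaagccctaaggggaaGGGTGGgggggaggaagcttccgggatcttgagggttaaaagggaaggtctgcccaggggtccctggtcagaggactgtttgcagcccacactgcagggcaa
Klk9: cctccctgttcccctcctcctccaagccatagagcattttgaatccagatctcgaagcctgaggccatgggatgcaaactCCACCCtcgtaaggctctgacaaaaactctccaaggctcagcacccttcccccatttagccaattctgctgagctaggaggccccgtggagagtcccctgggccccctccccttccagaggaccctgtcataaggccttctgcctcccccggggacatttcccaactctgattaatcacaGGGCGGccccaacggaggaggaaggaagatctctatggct
Klk8: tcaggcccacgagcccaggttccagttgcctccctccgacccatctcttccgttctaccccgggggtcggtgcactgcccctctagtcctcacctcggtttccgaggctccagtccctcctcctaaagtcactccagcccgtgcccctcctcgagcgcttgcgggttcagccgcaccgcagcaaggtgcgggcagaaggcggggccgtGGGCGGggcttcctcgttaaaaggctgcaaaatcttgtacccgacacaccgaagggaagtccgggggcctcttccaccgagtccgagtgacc
Klk11: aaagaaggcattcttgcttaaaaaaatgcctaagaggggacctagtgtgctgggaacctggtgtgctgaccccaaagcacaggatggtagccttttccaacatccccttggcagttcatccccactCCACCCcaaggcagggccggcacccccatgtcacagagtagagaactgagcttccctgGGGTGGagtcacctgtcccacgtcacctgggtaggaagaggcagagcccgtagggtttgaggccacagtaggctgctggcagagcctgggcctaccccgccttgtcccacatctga
Klk5: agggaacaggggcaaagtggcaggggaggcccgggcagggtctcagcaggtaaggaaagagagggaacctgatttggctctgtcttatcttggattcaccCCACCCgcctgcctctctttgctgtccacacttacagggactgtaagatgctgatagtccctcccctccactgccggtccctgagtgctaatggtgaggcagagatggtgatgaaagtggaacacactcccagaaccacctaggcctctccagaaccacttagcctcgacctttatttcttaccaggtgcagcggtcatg

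The 9 kallikreins have 11 such windows. A CACC box was present in 7 of the 11, against 31.5% of 32851 windows of the same length over all genes, and a GC box in 5 of 11, against 35.7%. In Klk10 the CACC boxes began at -108 and -52 from the start, in the printed Klk11 window at -124 and -66, and in Klk5 at -150. The second Klk11 window, chr7:43776079-43776378, held neither box. Klk9 held a CACC box at -170 and a GC box at 11, and Klk8 held no CACC box and a GC box at -42. In the Klk7 window, not printed, a CACC box and a GC box overlapped. The AP-1 motif TGANTCA, the Grainyhead motif AACCNGTT and the TATA box TATAAA were searched on both strands and matched none of the 11 windows, against 7.81%, 2.09% and 13.6% of all windows. Matches are a description of letters and were not tested against the differences.

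Genes of the structures that kallikreins cut were lower as well. All 8 genes of a list of corneodesmosome components passed 2-fold downwards, with a median of -1.63. The list also holds general desmosome genes, such as Pkp1, beyond the cut proteins named above. Dsg1a, a desmoglein 1 gene, went from 3000 to 340 in processed signal and was 4.44-fold lower, and the plakophilin gene Pkp1 went from 53094 to 7395 and was 3.61-fold lower. Dsg1b, a close copy of Dsg1a, was 3.58-fold lower, and probes of the Dsg1 genes may share signal. Cdsn, which encodes corneodesmosin, went from 571 to 124, a 2.32-fold lower level and the smallest step of the list. The protease genes Klk5 and Klk11, at -2.78 and -3.04, had lower differences than any of the 8 structural genes, whose lowest was -2.15. Both gaps to that value were within the wider limit of 1.05 for 2 single-probe genes, so this order is not firm. Klk7 at -1.35 lay within the range of the structural genes.

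Among 16 listed activators of prokallikreins and other epidermal proteases, 13 were measured, of which 6 passed 2-fold downwards and 0 upwards, with a median of -0.18. St14, which encodes matriptase, an activator of prokallikreins in mice that lack Spink5, went from 1729 to 298 and was 2.92-fold lower. Prss8, which encodes prostasin, was 2.27-fold lower. The lowest was the membrane protease gene Tmprss4 at 14.7-fold, followed by Asprv1, a filaggrin-processing protease, at 4.73-fold and Casp14, the caspase of cornifying cells, at 3.52-fold. The genes of lysosomal cathepsins, made by many cell types, were not past 2-fold: Ctsl, Ctsd, Ctsh and Ctsc differed by 0.67, 0.49, 0.50 and -0.18 (log2). The highest of the list was Plat, which encodes tissue plasminogen activator, at 1.77-fold higher. The meprin genes Mep1a and Mep1b were detected in neither sample.

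Of 10 other epidermal protease inhibitors, 5 were measured. Cst6, which encodes the cysteine protease inhibitor cystatin M/E, was 3.53-fold lower and Spint1, an inhibitor of matriptase, 2.43-fold lower, while none was at least 2-fold higher. Slpi, a secreted inhibitor of serine proteases, was 1.80-fold higher. Spint2, a further inhibitor of matriptase, was 1.84-fold higher at its representing probe, but its other probe differed by -1.77, so no direction is read for it. Spink6, Spink12 and Spink14 were detected in neither sample.

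Of 12 listed signalling partners and further substrates 10 were measured, with a median of 0.28, and 1 passed 2-fold downwards and 0 upwards, against 6.62% and 7.71% of all measured genes. That gene was Cdh1, which encodes E-cadherin, at 3.16-fold lower. F2rl1, which encodes the receptor PAR2 that KLK5 can cleave, differed by -0.27, and Tslp, a cytokine made downstream of PAR2, by 0.31. Camp, whose cathelicidin product is trimmed by kallikreins, differed by -0.71.

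Markers of the keratinocyte layers and of other cell types moved on the same arrays. All 10 suprabasal keratinocyte markers were at least 2-fold lower (median -2.16), with Krt1 at 31.0-fold, and their summed level relative to the 75th percentile went from 578 to 81.4. Of 10 basal markers 7 were at least 2-fold lower (median -1.42), with a summed level of 680 and 250. Of 8 measured granular markers, made by the layer that secretes kallikreins, 5 were at least 2-fold lower (median -1.23), with a summed level of 24.5 and 11.6, while Ivl and Hrnr were detected in the Rac3-KO sample alone. The other measured granular markers, Tgm3 and genes of the Lce family, lay above 0, from 0.39 to 0.91. Signals of these Lce genes, from 27.1 to 41.5, lay near the lowest detected signals of 23.4 and 20.1. The other Tgm3 probe was detected in the Rac3-KO sample alone, at 264 against 11.7. No direction is therefore read for these markers, although they count in the granular median and summed level. Casp14, Asprv1 and Cdsn, among the lower ones, also belong to the protease and corneodesmosome lists above. The summed level of the 10 set members went from 9.74 to 2.22. Of 11 measured hair shaft and inner root sheath markers, 8 were at least 2-fold lower (median -1.69). In the other direction, 13 of 14 skeletal muscle markers were at least 2-fold higher (median 2.45), with a summed level of 476 and 2553. Fibroblast and leukocyte markers had medians of 0.79 and 0.99, and endothelial and adipocyte markers 0.61 and 0.57. Lists outside keratinocytes and hair did not all rise. All 8 genes of the melanocyte list lay below 0 (median -0.99), and 4 of these passed 2-fold downwards. The nerve list had a median of -0.05. Both samples thus held RNA of cells other than keratinocytes, and fewer keratinocytes and less kallikrein RNA per keratinocyte cannot be told apart in such bulk RNA. The part of these cell types in the kallikrein differences was not tested. Klk11 and Klk5 lay below the median of every keratinocyte list, Klk8, Spink5 and Klk10 between the suprabasal and basal medians, Klk7 between the basal and granular medians, and Klk9 above all 3. These places count no error. The basal and granular medians lay closer together than the signal error of Klk7, 0.23.

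**Figure D5:**
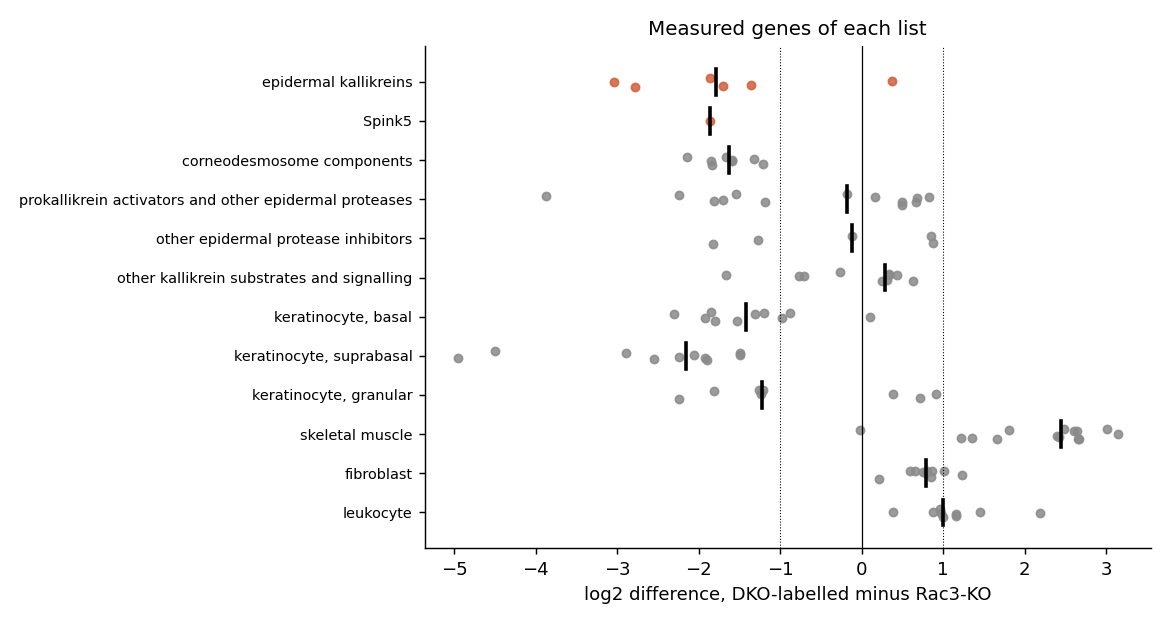
Log2 difference, DKO-labelled minus Rac3-KO, of every measured gene (points) of the epidermal kallikreins, Spink5, related gene lists and cell type markers, with the median of each list as a black bar and dotted lines at 2-fold. All 8 corneodesmosome genes and all 10 suprabasal markers lie below -1, the kallikreins spread from -3.04 to 0.37, and 13 of 14 skeletal muscle markers lie above 1.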

How the data were processed

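The deposited scanner files hold spot intensity (Cy3), which per the file headers came from Feature Extraction 10.10.1.1; Agilent Feature Extraction 9.1 is the version in the submitters' processing notes. Flags for detection, saturation and outlier spots are the software's. The authors' deposited table of values holds log2 levels; within 0.001 they equal, for 100% of probes spotted 1 time, the log2 processed signal minus a constant per array, with column medians of -3.72 (Rac3-KO) and -3.62 (DKO-labelled), so that scale and centring are known.

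Log2 processed signals were averaged per probe without control and outlier spots (155 and 190), and each array's 75th percentile over the 55678 probes left was subtracted. Accessions, without versions, were matched to the GRCm38.p6 RefSeq table, which named 26580 probes. The probe with the highest mean level stood for a gene, and the gene was measured if both samples had it detected. A gene detected in 1 sample got a bound, in which the dim side was the higher of its own level and the lowest detected level there. Signal errors are the software's own, combined over both arrays. With 1 array per group no test was run. The scaling and difference steps were tested on simulated data in which every probe was detected on both arrays. Detection, bounds, gene naming and normexp were not tested that way. Alternatives changed the scaling, background correction, outlier and detection filters, probe summary and fold threshold. Normexp used limma 3.58.1 with an offset of 50; other steps used Python 3.11.15.

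The set, the lists and the rule for naming genes were chosen with earlier results of these data known. The rule named every set member, for each related list up to 3 genes each way past 2-fold or else the largest each way, and for marker lists the count, median and up to 2 genes. One gene that the rule named is not reported here. Klk1, Klk4, Klk12, Klk15, St14, Prss8, Spink6, Spink12, Spink14, Slpi, Mep1a, Mep1b, Ctsl, Ctsd, Ctsh, Ctsc, F2rl1, Tslp, Camp, Cdsn, Ctu1 and Siglece were added after their values were seen. Endothelial, adipocyte, melanocyte and nerve marker lists had medians of 0.61, 0.57, -0.99 and -0.05.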

Additional observations from a re-analysis of the deposited data

How the results depend on the processing

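Scaling to the median, scaling to the 75th percentile of probes well above background on both arrays, quantile normalization, keeping outlier spots and using the deposited value table left 6 of 7 measured genes at least 2-fold lower, with medians from -1.95 to -1.86; scaling to the median moved the median of all genes to -0.10. With normexp on the median spot signal, chosen after seeing the data because the mean spot signal is not among the columns used here, the median was -1.22 and 5 genes were at least 2-fold lower, against 4.70% of all genes. Spike-in scaling gave a median of -3.83 and 7 genes, beside a median of -1.98 over all genes. With no filter on detection 8 of 10 genes were at least 2-fold lower, against 7.55% of 20144 genes, whose median was 0.14; with thresholds of 1.5-fold and 3-fold 6 and 5, and 0 were higher in any of these settings. The mean over a gene's probes changed nothing, since each has 1. No paired analysis was possible because each genotype has 1 array. Signal over background limits Klk6, Klk13 and Klk14.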

Other observations

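The Spink family, looked at by symbol after the values were seen, had 13 genes on the array. Spink5 and Spink2 were measured, and 10 were detected in neither sample. Spink2, best known from the testis, had signals of 313 and 242 and a log2 difference of 0.62 with a signal error of 0.21. Spink8 had signals of 96.3 and 9.99, was detected in the Rac3-KO sample alone, and was at least 2.41-fold lower in the DKO-labelled sample.

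Different probes of some epithelial genes disagreed, a point seen after the values were known and one that cannot be checked for the kallikreins, each of which has 1 probe. The probes of Spint2 differed by 0.88 and -1.77 (log2), and those of Trp63, the transcription factor of stratified epithelia, by -1.80 and 0.43. Of the probes of Tgm3, an epidermal transglutaminase, one differed by 0.72, while the other had signals of 264 and 11.7 and was detected in the Rac3-KO sample alone.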
